A study of Mus musculus with 10 samples.

Results

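Of 36251 accessible regions (peaks) measured in intestinal innate lymphoid cells, 1415 (3.90%) were lower in both libraries of cells that lack T-bet together with RORgt than in every library of cells that lack RORgt alone or RORgt with RORa. The members were chosen by these measured values: both RORgt-Tbet-KO values lay below all 5 values of the other knockouts, and the RORgt-Tbet-KO mean lay at least 0.8 on the log2 scale below the mean of each of these groups. They were then split by their level in Control, at the midpoint between the RORgt-Tbet-KO mean and the lower of the other 2 knockout means. In 778 members the Control mean was at or above this midpoint (Control-high), and in 637 it was below (Control-low).

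Chromatin accessibility was measured by ATAC-seq, in which a transposase inserts sequencing adapters into accessible DNA, in lymphoid cells without antigen receptors that were sorted from the small intestine's lamina propria. All mice were C57BL/6, received tamoxifen in the diet for several weeks, and carried Id2creERT2+, an inducible Cre recombinase under Id2 control, and the tdRFP+ reporter. Control (n = 3) carried nothing further, RORgt-KO (n = 2) added 1 pair of floxed alleles, which RORgt-Tbet-KO (n = 2) carried together with Tbx21f/f and RORgt-RORa-KO (n = 3) together with Roraf/f. Each library came from 1 mouse or from 2 or 3 pooled mice. All 3 knockouts thus shared the deletion of RORgt-KO, so T-bet loss was seen only on top of it, and no group lacked T-bet alone. Values are the authors' log2 scaled reads in a peak, on the mouse assembly GRCm38, and peaks carry the name of the protein-coding gene closest to them, up to 50 kb away.

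T-bet, the product of Tbx21, is a T-box transcription factor that drives the type 1 programme of lymphocytes, including interferon-gamma and its inducers' receptors, chemokines and cytotoxic genes. In the gut, a subset of group 3 innate lymphoid cells also expresses T-bet and can take on type 1 features. RORa is a nuclear receptor.

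Promoter sequence was available from RefSeq for GRCm38, as 250 bases before each start site, and 63 such windows of 58 genes overlapped a member. The T-box letters AGGTGTGA, searched on both strands, occurred in 5 of these 63 windows (7.94%), in 0.700% of the 11573 windows under any peak and in 1.13% of all 32619 windows. The shorter core GGTGTGA, which lies within the longer word, occurred in 7 (11.1%), against 2.77% and 3.36%. The remaining words searched on both strands were the RUNX word TGTGGTT (7.94% of member windows, 3.45% under any peak), the ETS word GGAAGT (30.2% and 24.3%), the AP-1 word TGAGTCA (3.17% and 2.89%) and the ROR word TAGGTCA (3.17% and 1.57%). These shares rest on few windows and describe letters, not binding.

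The 5 windows with the T-box word and the Xcl1 window with the core are printed because they hold these letters under a member; the remaining window with the core, at Rab39, shared only 1 base with its member and is not printed. Each runs 5′ to 3′ along the gene and ends at the base before its start site, and capitals mark the T-box word or core on either strand.

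Nkg7 (chr7:43436888-43437137, plus strand): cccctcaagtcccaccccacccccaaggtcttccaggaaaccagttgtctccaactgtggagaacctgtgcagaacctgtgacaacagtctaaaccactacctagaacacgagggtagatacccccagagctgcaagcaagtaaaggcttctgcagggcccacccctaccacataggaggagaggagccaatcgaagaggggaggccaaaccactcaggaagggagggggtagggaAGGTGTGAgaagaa

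Samd3 (chr10:26229457-26229706, plus strand): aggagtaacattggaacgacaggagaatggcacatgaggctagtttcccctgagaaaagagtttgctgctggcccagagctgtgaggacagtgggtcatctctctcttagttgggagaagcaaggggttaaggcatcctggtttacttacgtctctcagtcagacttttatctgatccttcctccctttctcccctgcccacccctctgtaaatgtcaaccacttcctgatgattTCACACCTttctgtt

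Pglyrp1 (chr7:18884440-18884689, plus strand): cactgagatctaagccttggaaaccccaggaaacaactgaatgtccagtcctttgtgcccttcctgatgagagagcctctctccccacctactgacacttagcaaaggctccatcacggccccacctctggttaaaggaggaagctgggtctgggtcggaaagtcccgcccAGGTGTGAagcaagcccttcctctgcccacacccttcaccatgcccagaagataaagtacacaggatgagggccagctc

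Gm31871 (chr9:32594246-32594495, plus strand): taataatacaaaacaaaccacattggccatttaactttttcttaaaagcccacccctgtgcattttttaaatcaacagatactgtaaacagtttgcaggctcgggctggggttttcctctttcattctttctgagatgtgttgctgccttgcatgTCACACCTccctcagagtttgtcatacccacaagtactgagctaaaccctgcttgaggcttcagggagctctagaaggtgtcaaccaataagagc

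Gm30318 (chr4:43822904-43823153, plus strand): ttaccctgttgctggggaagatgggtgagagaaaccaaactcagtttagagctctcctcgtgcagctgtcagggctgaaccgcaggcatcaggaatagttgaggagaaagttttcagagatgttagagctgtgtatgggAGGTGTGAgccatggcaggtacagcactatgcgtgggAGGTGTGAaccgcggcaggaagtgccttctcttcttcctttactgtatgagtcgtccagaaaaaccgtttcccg

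Xcl1 (chr1:164935523-164935772, minus strand): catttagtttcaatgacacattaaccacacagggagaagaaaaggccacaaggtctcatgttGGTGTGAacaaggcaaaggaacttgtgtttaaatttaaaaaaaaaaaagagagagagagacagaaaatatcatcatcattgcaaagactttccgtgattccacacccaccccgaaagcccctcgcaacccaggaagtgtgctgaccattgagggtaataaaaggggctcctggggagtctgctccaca

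In Nkg7, a granule membrane protein gene of cytotoxic lymphocytes, the T-box word lay 14 to 7 bases before the start site. In Samd3 it lay 15 to 8 bases before the start, on the other strand. In Pglyrp1, which encodes a peptidoglycan-binding antibacterial protein, it lay 79 to 72 bases before the start, and Gm30318 held it at 111 to 104 and again at 74 to 67 bases. Gm31871 is a predicted gene whose window overlapped a member by 214 of its 250 bases. That member lay 41571 bp from Ets1, the nearest protein-coding gene. The Ifng and Ccl3 windows, both covered whole by members, held neither the T-box word nor its core, which says only that these letters are not in these 250 bases.

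The members with these windows differed in their Control level. The Samd3 member (chromosome 10, 26229496 to 26229860) had 4.62, 4.37 and 4.38 for Control, 5.99 and 6.04 for RORgt-KO, 6.10, 6.46 and 6.07 for RORgt-RORa-KO, and 3.50 and 4.20 for RORgt-Tbet-KO. Control thus lay near RORgt-Tbet-KO and below both other knockouts. The Pglyrp1 member (chromosome 7, 18884414 to 18884803) had 5.90, 5.83 and 5.92 for Control, 6.07 and 6.08 for RORgt-KO, 6.16, 6.03 and 5.73 for RORgt-RORa-KO, and 4.44 and 5.24 for RORgt-Tbet-KO. Here RORgt-Tbet-KO stood below all 8 other libraries.

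Across all members, the median value of a library was 3.72 and 3.83 for RORgt-Tbet-KO, 5.19 and 5.11 for RORgt-KO, 5.48, 5.68 and 5.16 for RORgt-RORa-KO, and 4.54, 4.76 and 4.76 for Control. The median over all peaks was 5.90 to 6.03 in the 10 libraries, so members were peaks of lower level in each library. The median difference between RORgt-Tbet-KO and RORgt-KO was -1.29 over members (quartiles -1.69 and -1.04, median SE of a peak 0.48) and 0.02 over all peaks. Against RORgt-RORa-KO it was -1.53 (quartiles -2.02 and -1.20, median SE 0.44) and 0.02 over all peaks. These differences follow from the choice of members and are given as descriptions. In bulk cells, fewer cells of a type and less accessibility per cell cannot be told apart.

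**Figure D1:**
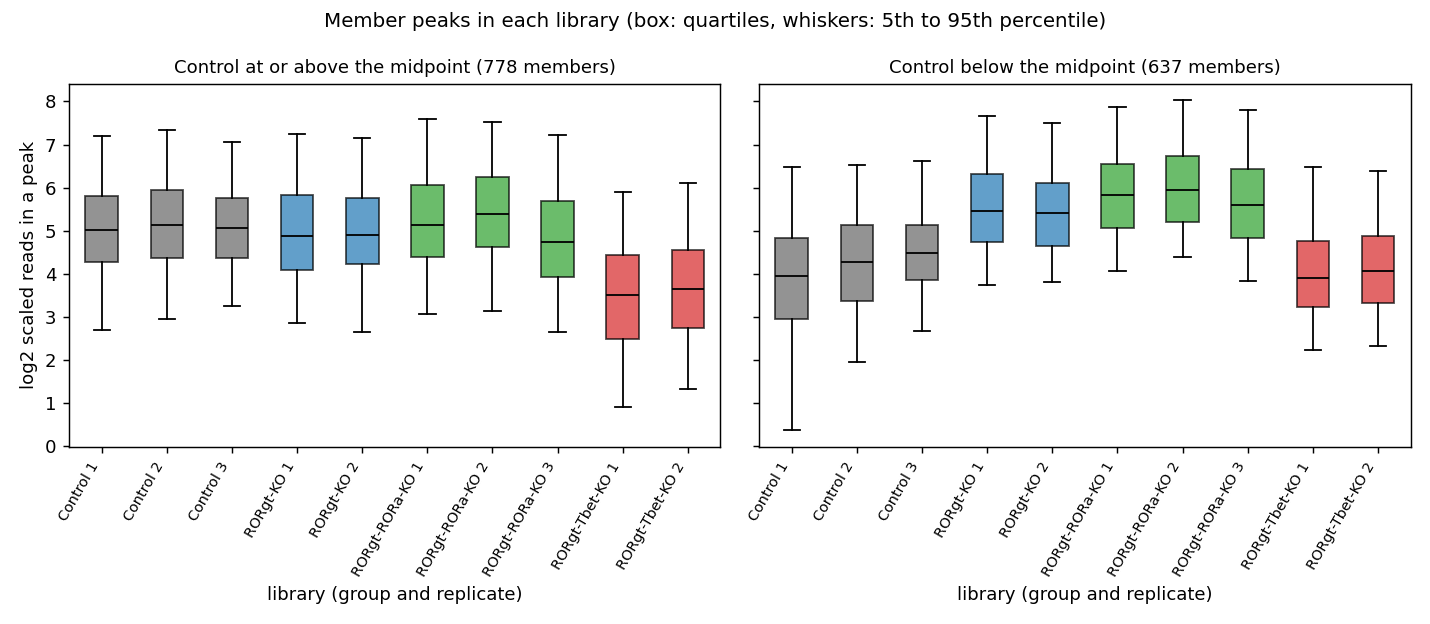
Log2 scaled reads of the members in each of the 10 libraries (x axis, group and replicate number), for 778 Control-high members on the left and 637 Control-low members on the right. Boxes are quartiles with the median as a line and whiskers are the 5th and 95th percentiles; in the left panel the Control boxes lie level with RORgt-KO and RORgt-RORa-KO, and in the right panel they lie level with RORgt-Tbet-KO.

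The depth behind the members was small. The median member held 14 and 17 reads in the RORgt-Tbet-KO libraries, which were among the most deeply sequenced (4581343 and 5048636 reads in peaks), while the median of all peaks held 64 and 73. In the 8 other libraries, with 2272276 to 4734879 reads in peaks, the median member held 17 to 40 reads. With all peaks ranked by Control level and cut into 4 equal classes, 8.95% of the lowest class were members, against 4.09%, 2.02% and 0.552% of the classes above it.

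Each library of the knockouts was also left out of the choice in turn. The values that a left-out library was compared with had been used by the rule, so its share among chosen peaks lies above that of all peaks partly through the choice, and the share of all peaks is no value for peaks without a difference. When the members were chosen without RORgt-Tbet-KO replicate 1, that library lay below all 5 values of the other knockouts in 1321 of 1710 peaks (77.3%), against 18.0% of all peaks. Without RORgt-Tbet-KO replicate 2, it did so in 1463 of 2006 (72.9%), against 18.3%. Each left-out library of the other knockouts lay above both RORgt-Tbet-KO values in 86.1% to 97.0% of the peaks chosen without it, against 37.1% to 43.2% of all peaks. The share rose with level: for RORgt-Tbet-KO replicate 2 it was 62.4% in the lowest of 4 equal classes of mean level and 92.4% in the highest, and for replicate 1 it was 69.0% and 94.1%. It was also higher among peaks that were Control-low without the library (91.3% and 87.1% for replicates 1 and 2) than among Control-high ones (68.8% and 65.6%). The midpoint of this split used the remaining RORgt-Tbet-KO library, as the choice did. A low value there favours both the choice and the Control-high side, and no share of all peaks was counted by class. Nothing is therefore read from this difference. In the type 1 genes described further on, the left-out replicate 1 was on the rule's side in 19 of 19 peaks and replicate 2 in 19 of 21. This stood against 31 of 100 peaks of that list for each, again partly through the choice.

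**Figure D2:**
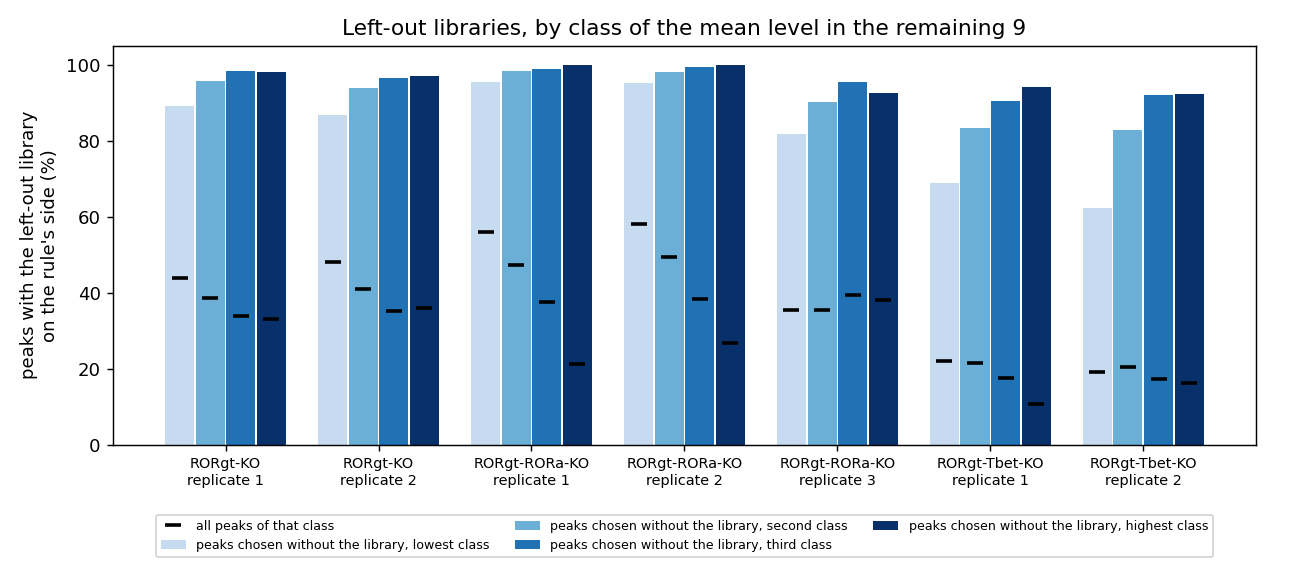
Share of peaks, in percent, in which a library left out of the choice lay on the side the rule asks for (below the other knockouts for RORgt-Tbet-KO, above both RORgt-Tbet-KO libraries for the others), by class of the mean level in the remaining 9 libraries (4 equal classes). Bars are the peaks chosen without the library and black dashes all peaks of that class; the RORgt-Tbet-KO bars run from 62.4% to 94.1%, and each bar lies above its dash, partly because the libraries it is compared with chose the peaks.

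The Control level, which the choice of members had not used before the split, ran from below RORgt-Tbet-KO to above the other knockouts. Placed on a scale from 0 at the RORgt-Tbet-KO mean to 1 at the lower of the other means, its median was 0.58. The Control mean was at or below the RORgt-Tbet-KO mean in 225 members (15.9%) and at or above both other knockout means in 259 (18.3%). All 3 Control libraries lay on the side of the group mean in 496 of the 778 Control-high members and in 302 of the 637 Control-low members. By library, 49.4% of the members were at or above the midpoint in Control replicate 1, 58.4% in replicate 2 and 62.8% in replicate 3. The classes are therefore 2 sides of 1 continuous range, and a member near the midpoint changes side with a single library. Chosen without RORgt-Tbet-KO replicate 2, the Control-high class held 1318 peaks and the Control-low class 688.

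**Figure D3:**
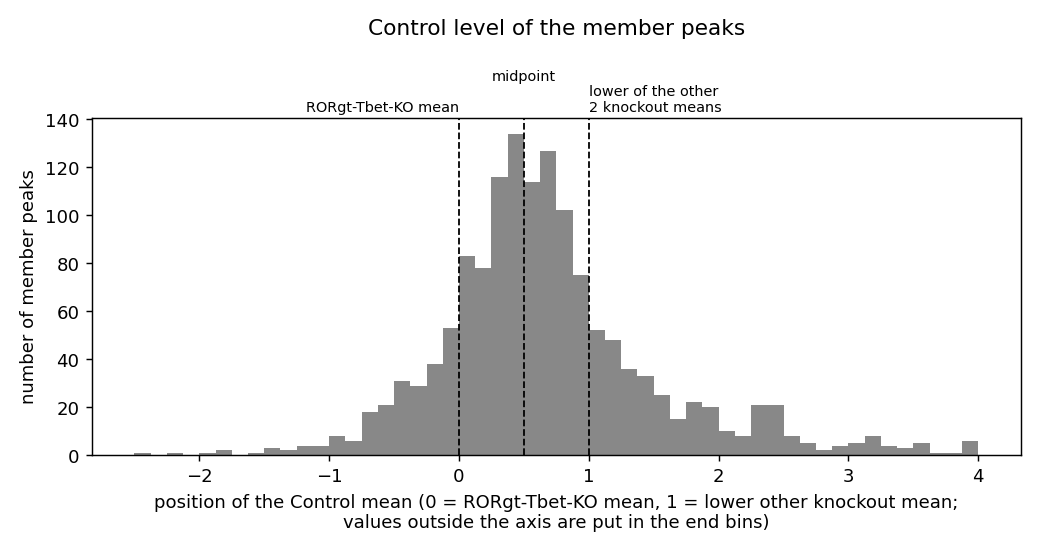
Number of members (y axis) by the position of the Control mean, where 0 is the RORgt-Tbet-KO mean and 1 the lower of the other 2 knockout means (x axis). Dashed lines mark 0, the midpoint and 1; the distribution has 1 peak near its median of 0.58, with no gap at the midpoint.

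In Control-high members, the median of Control lay near those of RORgt-KO and RORgt-RORa-KO, and that of RORgt-Tbet-KO lay below all 3. Their median group mean was 5.0 for Control, 4.90 for RORgt-KO, 5.08 for RORgt-RORa-KO and 3.57 for RORgt-Tbet-KO. All 3 Control values lay above both RORgt-Tbet-KO values in 662 of the 778, and in 757 of all members (53.5%), against 26.3% of all peaks. In limma's fit over all peaks, 447 of the 778 were called lower in RORgt-Tbet-KO than in Control at an adjusted p under 0.05, and 290 of these were called in neither of the other knockouts. Over all members the counts were 460 lower and 13 higher, where 11.3% of all peaks were called lower and 11.3% higher. The pattern of the 290 had 2.73% of all peaks. Without RORgt-Tbet-KO replicate 1, 247 members were called lower than in Control (1803 of all peaks, in place of 4096), and without replicate 2, 310 (1998 of all peaks). Because the choice took low RORgt-Tbet-KO values, these counts are not independent of it. The class was not uniform in the other knockouts. Of the 778, 14 were called higher and 56 lower in RORgt-KO than in Control (5.19% and 7.12% of all peaks). In RORgt-RORa-KO, 103 were called higher and 94 lower (15.1% and 16.1% of all peaks).

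In Control-low members, the other knockouts stood above Control and RORgt-Tbet-KO did not follow. Their median group mean was 4.14 for Control, 5.41 for RORgt-KO, 5.79 for RORgt-RORa-KO and 4.03 for RORgt-Tbet-KO. All 3 Control values lay below all 5 values of RORgt-KO and RORgt-RORa-KO in 478 of the 637, and in 551 of all members (38.9%), against 11.9% of all peaks. Of the 637, 273 were called higher in RORgt-KO than in Control and 512 in RORgt-RORa-KO, and 239 were called higher in both and not called in RORgt-Tbet-KO, a pattern that 1.22% of all peaks had. Over all members, 287 were called higher and 56 lower in RORgt-KO (5.19% and 7.12% of all peaks), and 615 higher and 94 lower in RORgt-RORa-KO (15.1% and 16.1%). Without RORgt-KO replicate 1, 85 members were called higher in RORgt-KO than in Control (526 of all peaks, in place of 1883), and without replicate 2, 142 (856 of all peaks). The 3 comparisons share the Control libraries, and the split fixed the direction of Control within each class.

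Other orders of the groups were counted as well. In 127 members (8.98%) all Control values lay above all values of the other knockouts, against 14.4% of all peaks, and in 37 (2.61%) all lay below both RORgt-Tbet-KO values, against 26.2%. No call against Control was made for 400 members (28.3%), against 61.3% of all peaks. Between RORgt-RORa-KO and RORgt-KO, the groups that the rule treats alike, 3 members were called higher in RORgt-RORa-KO, as were 0.331% of all peaks. The contrasts that the rule used called 335 members lower in RORgt-Tbet-KO than in RORgt-KO (0.965% of all peaks) and 839 lower than in RORgt-RORa-KO (3.82%), from which nothing is read. The first count was 71 without RORgt-KO replicate 1, 133 without its replicate 2, 119 without RORgt-Tbet-KO replicate 1 and 195 without its replicate 2, where 72, 136, 123 and 200 of all peaks were called lower, in place of 350. The second was 410 and 506 without RORgt-Tbet-KO replicates 1 and 2, where 536 and 628 of all peaks were called lower, in place of 1383. The order of the libraries alone, without the 0.8 minimum, held in 3952 peaks (10.9%).

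The members lay mostly away from gene ends. Only 102 (7.21%) were within 1 kb of an end of a protein-coding gene, against 29.9% of all peaks, while 596 (42.1%) lay inside genes (39.1%), 421 (29.8%) between genes within 50 kb (20.9%) and 296 (20.9%) further than 50 kb from a gene (10.1%). This last class held 24.3% of the Control-high and 16.8% of the Control-low members. The median member was 320 bp long (quartiles 226 and 459) and the median of all peaks 481 bp. The median distance to an annotated start site was 26668 bp for members and 9145 bp for all peaks. Members were also more frequent among peaks of low Control level (8.95% of the lowest of 4 classes, 0.552% of the highest). Place and length were not compared at equal level, so these values are not read as particular to the members. Among the 2826 peaks next to a member on the chromosome, 376 (13.3%) were members too, where 3.90% of all peaks were members. Another member lay within 50 kb of 348 members (24.6%). The share of all peaks with a member that near was not counted, so this value is not read as clustering. The share per chromosome ran from 2.25% on chromosome 11, which carries Tbx21, to 5.07% on chromosome 10, and within 10 Mb of Tbx21 it was 1.43% (7 of 491 peaks). The opposite choice, peaks higher in RORgt-Tbet-KO than in all 5 libraries by the same margin, held 357 peaks, of which 4.76% lay at gene ends.

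By nearest gene, the members covered 948 genes, 809 of them with a single member. Of 15 gene lists with 285 genes, the list of type 1 and cytotoxic effector genes had 18 members among its 100 peaks (18.0%), natural killer receptor genes 12 of 77 (15.6%), and type 2 lymphocyte genes 3 of 17, against 3.90% of all peaks. Homing and residency genes had 6 of 82 (7.32%), transcription factor genes 16 of 320 (5.0%) and cytokine receptor and JAK-STAT genes 6 of 141 (4.26%). Genes of type 3 effectors and receptors had 3 of 96 (3.12%), and lymphoid tissue inducer (LTi)-like genes 0 of 72. The opposite choice, a smaller set with 357 of all 36251 peaks, held 2 of the 100 peaks of type 1 genes and 0 of the 77 of natural killer receptor genes. It held 7 of the 96 peaks of type 3 genes and 2 of the 72 of LTi-like genes. The same rule applied to RORgt-RORa-KO chose 678 of the 36251 peaks, above all 4 values of RORgt-KO and RORgt-Tbet-KO. These included 11 of the 100 type 1 peaks, so type 1 genes stood above the share of all peaks in that set too. These 678 included 134 members (9.47% of the members and 19.8% of that set), and both choices use the same libraries. The lists were written with earlier results of these data known and were not tested.

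**Figure D4:**
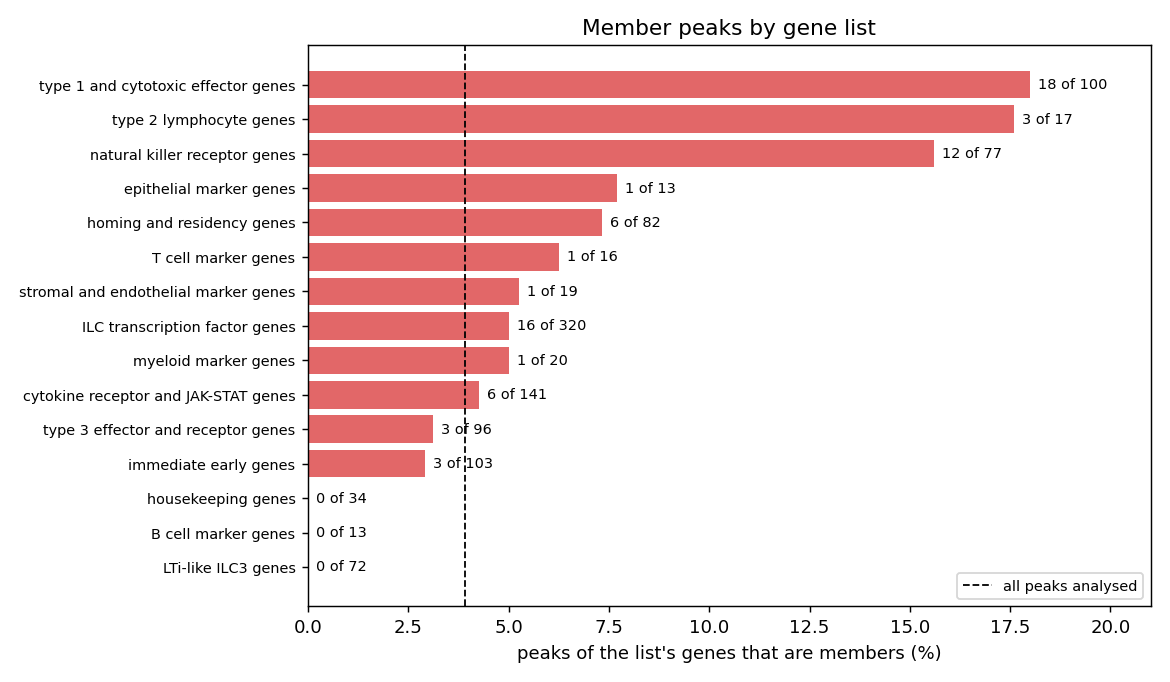
Share of the peaks of each gene list that are members (x axis, percent), with the count of members and peaks beside each bar. The dashed line is the share over all peaks, 3.90%; type 1, type 2 and natural killer receptor genes lie furthest above it, and LTi-like, B cell and housekeeping genes had no member.

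Type 1 genes were on the Control-low side in 17 of their 18 members, which lay near 10 genes: Ccl3, Ccl4, Ccl5, Cxcr3, Ifng, Il12rb2, Ly6c2, Nkg7, Tnfsf10 and Xcl1. Their differences ran from -2.61 to -0.87 against RORgt-KO and from -3.37 to -0.88 against RORgt-RORa-KO, and from -1.34 to 1.05 against Control. The median over the 18 was -0.28 against Control. The 82 other peaks of the same list had a median of 0.53, with 30 called higher and 4 lower in RORgt-Tbet-KO than in Control. The choice took low RORgt-Tbet-KO values, so this contrast follows partly from it. The summed level of all 100 peaks was 12172 to 12419 scaled reads in RORgt-Tbet-KO, 11550 to 12281 in RORgt-KO, 13079 to 14622 in RORgt-RORa-KO and 10096 to 10497 in Control. The summed level was thus not lower in RORgt-Tbet-KO than in RORgt-KO, but it was below every RORgt-RORa-KO library. Sums of other lists differed between RORgt-Tbet-KO and RORgt-KO too. Housekeeping peaks summed to 5317 to 5417 in RORgt-Tbet-KO and 4845 to 4976 in RORgt-KO. Type 2 peaks went the other way, with 1168 to 1291 and 1455 to 1465. The members were single regions within the type 1 list.

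Among the receptors, Il12rb2 encodes the signalling chain of the interleukin-12 receptor, which activates STAT4. Its intronic member (chromosome 6, 67347988 to 67348479) had 4.62, 4.69 and 4.48 for Control, 6.99 and 6.90 for RORgt-KO, 7.48, 7.86 and 7.42 for RORgt-RORa-KO, and 4.16 and 4.50 for RORgt-Tbet-KO. The knockouts with T-bet were separated by 2.40 from RORgt-Tbet-KO, whose values lay at the Control level. The difference was -2.61 (SE 0.30) against RORgt-KO, -3.26 (SE 0.28) against RORgt-RORa-KO and -0.27 (SE 0.28) against Control. A second member, near the start site (67373740 to 67373933), had 4.87 and 4.56 for RORgt-KO and 3.37 and 2.91 for RORgt-Tbet-KO.

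Of the remaining 3 Il12rb2 peaks, the one at the gene end (starting at 67375855) had the members' order but missed the 0.8 minimum, with 6.05, 6.33 and 5.92 for Control, 7.23 and 6.86 for RORgt-KO, 6.99, 6.86 and 7.76 for RORgt-RORa-KO, and 6.23 and 6.39 for RORgt-Tbet-KO. There RORgt-Tbet-KO differed from Control by 0.21 (SE 0.26). The other two peaks did not have this order. At the intronic peak starting at 67367150, Control had 4.07, 4.18 and 2.68, RORgt-KO 6.53 and 6.01, and RORgt-Tbet-KO 6.63 and 6.08. There RORgt-Tbet-KO was higher than Control by 2.71 (SE 0.36, 6.56-fold, limma adjusted p = 3.36e-06), and it differed from RORgt-KO by 0.09 (SE 0.39). At the peak starting at 67367869 it was higher than Control by 3.53 (SE 0.53, limma adjusted p = 2.03e-05). In RORgt-KO these 2 intronic peaks were called higher than Control too (limma adjusted p = 1.09e-05 and 5.19e-05). Within 1 gene, then, RORgt-Tbet-KO differed from Control by -0.27 and 0.23 at the members, by 0.21 at the gene end and by 2.71 and 3.53 at the intronic peaks between the members.

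Cxcr3 encodes the receptor for the interferon-induced chemokines. Its member 3033 bp from the gene on chromosome X (101737180 to 101737714) had 6.18, 6.42 and 6.26 for Control, 7.14 and 7.59 for RORgt-KO, 7.47, 7.87 and 7.71 for RORgt-RORa-KO, and 5.37 and 5.30 for RORgt-Tbet-KO. RORgt-Tbet-KO was here the lowest group and Control lay between. The difference from RORgt-KO was -2.03 (SE 0.25). The peak at the end of Cxcr3 had 6.95 and 6.91 for RORgt-Tbet-KO and 6.45 and 7.09 for RORgt-KO, so the groups overlapped there.

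Of the cytokine genes, Ifng encodes interferon-gamma. The member over its start site (chromosome 10, 118440597 to 118441155) had 5.02, 4.96 and 5.0 for Control, 6.19 and 5.94 for RORgt-KO, 6.51, 6.77 and 6.81 for RORgt-RORa-KO, and 5.04 and 4.39 for RORgt-Tbet-KO. RORgt-Tbet-KO and Control overlapped, and all 5 other libraries lay above both. The second Ifng member, 24757 bp from the gene (118470651 to 118470895), held 3.37 and 3.33 for RORgt-Tbet-KO and 4.53 and 4.46 for RORgt-KO. The Ifng peaks starting at 118406871 and 118418790 were no members, and RORgt-Tbet-KO differed there from RORgt-KO by 0.11 (SE 0.43) and 0.01 (SE 0.23).

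Xcl1 encodes lymphotactin, a chemokine for cross-presenting dendritic cells. The member over its start site (chromosome 1, 164935426 to 164936102) had 5.33, 5.99 and 5.76 for Control, 7.67 and 7.43 for RORgt-KO, 7.77, 7.55 and 8.37 for RORgt-RORa-KO, and 6.65 and 6.71 for RORgt-Tbet-KO. RORgt-Tbet-KO was intermediate, above all Control libraries and below the other knockouts. The Nkg7 member (chromosome 7, 43436391 to 43437339), whose promoter is printed above, had the same order: 5.83, 5.62 and 6.48 for Control, 8.14 and 8.02 for RORgt-KO, 8.72, 8.82 and 8.73 for RORgt-RORa-KO, and 7.03 and 7.03 for RORgt-Tbet-KO. Its other peak, at the far end of the gene, was higher in RORgt-Tbet-KO than in Control by 0.86 (SE 0.19, limma adjusted p = 0.00155).

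Ccl3, Ccl4 and Ccl5 encode inflammatory chemokines. The Ccl4 member (chromosome 11, 83662124 to 83662719) had 0.22, 3.54 and 4.00 for Control, 4.61 and 4.65 for RORgt-KO, 6.04, 5.63 and 6.18 for RORgt-RORa-KO, and 2.23 and 2.91 for RORgt-Tbet-KO. The 0.22 is a peak without reads in Control replicate 1, and Control spans RORgt-Tbet-KO. Of the 3 Ccl3 members, the one 7254 bp from the gene (83640196 to 83640589) had 5.96 and 5.46 for RORgt-KO and 3.50 and 4.14 for RORgt-Tbet-KO. Ccl3 and Ccl4 are neighbours, so their 4 members are close regions of 1 locus. Tnfsf10 encodes the death ligand TRAIL, and its member at 27330785 to 27331076 on chromosome 3 was the list's single Control-high member, with 4.07, 4.62 and 4.58 for Control and 2.72 and 3.45 for RORgt-Tbet-KO. All 3 peaks of Ly6c2 were members, but Ly6c2 has near-identical neighbours and its reads may belong to copies.

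**Figure D5:**
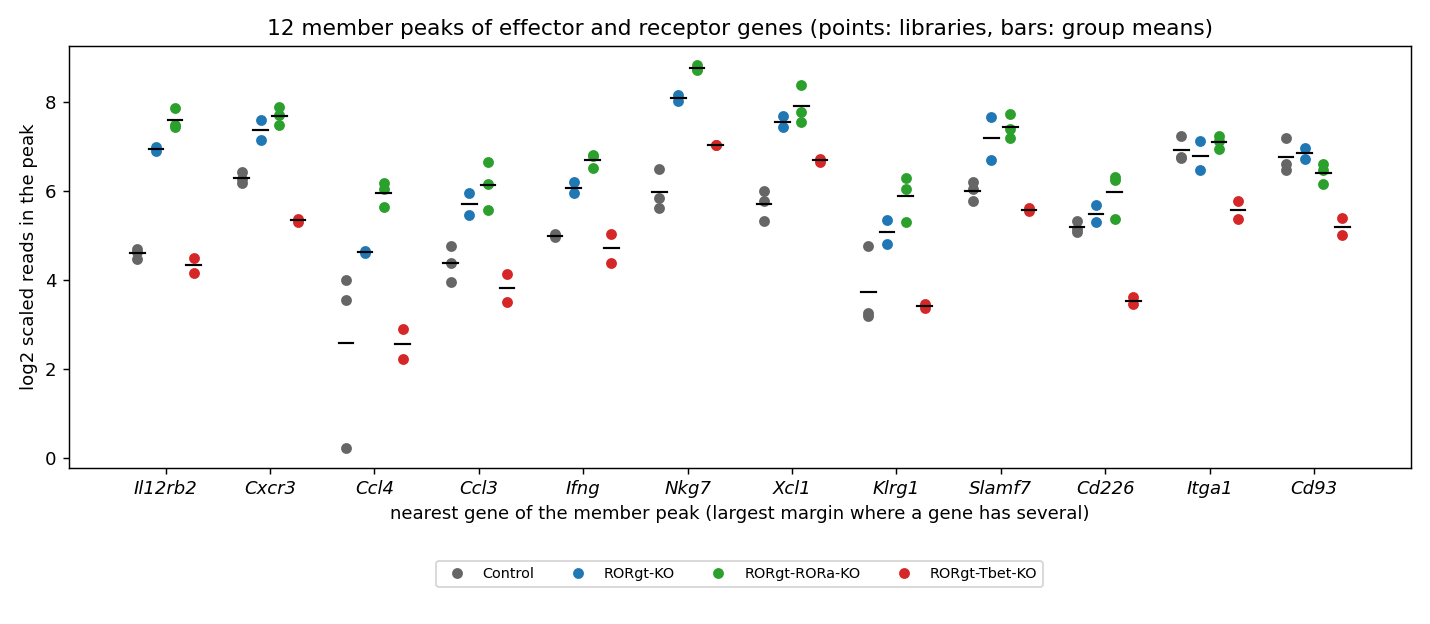
Log2 scaled reads (y axis) of 12 members of type 1, natural killer receptor and type 3 genes (x axis), with 1 point per library and a bar at each group mean. In Il12rb2 the RORgt-Tbet-KO points (4.16 and 4.50) lie beside Control, in Nkg7 (7.03 and 7.03) above Control, and in Itga1 and Cd93 below Control, and in each gene they lie below all points of RORgt-KO and RORgt-RORa-KO.

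Natural killer receptor genes had members at 8 genes, 5 Control-high and 7 Control-low. The 65 other peaks of the list had a median difference of 0.09 from RORgt-KO, against -1.31 for the 12 members, which follows from the choice of members. Over all 77 peaks the median was -0.06. Their summed level was 6677 to 7255 scaled reads in RORgt-Tbet-KO and 6601 to 7184 in RORgt-KO, so the groups overlapped. Slamf7 encodes an activating receptor that binds itself on neighbouring cells. Its member 2725 bp from the gene (chromosome 1, 171628905 to 171629678) had 5.77, 6.20 and 6.03 for Control, 7.66 and 6.70 for RORgt-KO, 7.38, 7.18 and 7.73 for RORgt-RORa-KO, and 5.61 and 5.55 for RORgt-Tbet-KO. Klrg1 encodes an inhibitory receptor of mature lymphocytes that binds cadherins. Its member (chromosome 6, 122284727 to 122285167) had 4.77, 3.18 and 3.26 for Control, 4.81 and 5.35 for RORgt-KO, 6.04, 6.28 and 5.30 for RORgt-RORa-KO, and 3.37 and 3.45 for RORgt-Tbet-KO. Control spanned RORgt-Tbet-KO in Klrg1 and lay just above it in Slamf7.

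Itga1, the collagen-binding integrin chain CD49a of resident type 1 cells, was Control-high. Its intronic member (chromosome 13, 115098131 to 115098943) had 6.75, 7.24 and 6.74 for Control, 7.11 and 6.46 for RORgt-KO, 6.94, 7.12 and 7.22 for RORgt-RORa-KO, and 5.77 and 5.36 for RORgt-Tbet-KO. The difference from Control was -1.35 (SE 0.25). Klrd1, which encodes CD94, had a single peak, and it was a member with 5.53 and 5.51 for RORgt-KO and 4.44 and 4.20 for RORgt-Tbet-KO. Cd226 encodes the activating receptor DNAM-1 and had 3 members among 10 peaks. Its member at 89214799 to 89215140 on chromosome 18 had 5.33, 5.07 and 5.14 for Control, 5.68 and 5.29 for RORgt-KO, 6.32, 6.24 and 5.37 for RORgt-RORa-KO, and 3.61 and 3.45 for RORgt-Tbet-KO. The members of Klra3 and Klra6 lie in a family of near-identical genes and are uncertain.

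Among transcription factor genes, 16 members lay near 9 genes, and Ets1, Ikzf2 and Runx2 had 3 each. Ikzf2 encodes Helios. Its member 34786 bp from the gene (chromosome 1, 69496075 to 69496421) had 6.05, 6.10 and 5.85 for Control, 6.43 and 6.58 for RORgt-KO, 6.57, 7.43 and 6.61 for RORgt-RORa-KO, and 4.61 and 4.33 for RORgt-Tbet-KO, so RORgt-Tbet-KO stood apart from all 8 others. Ets1 encodes an ETS factor needed for natural killer cell development, and its 3 members were Control-low. The one at 32594282 to 32594670 on chromosome 9, which holds the Gm31871 window, had 6.05, 5.37 and 5.20 for Control, 7.03 and 6.61 for RORgt-KO, 7.21, 7.21 and 7.15 for RORgt-RORa-KO, and 4.56 and 5.24 for RORgt-Tbet-KO. The intronic Runx2 member (chromosome 17, 44556989 to 44557667) was Control-high, with 6.21, 5.66 and 5.85 for Control and 4.72 and 4.50 for RORgt-Tbet-KO.

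Bhlhe40, a basic helix-loop-helix repressor of activated lymphocytes, had a Control-high member 32590 bp away (chromosome 6, 108699515 to 108700289). It had 7.32, 7.15 and 7.18 for Control, 6.47 and 6.56 for RORgt-KO, 7.29, 6.34 and 7.31 for RORgt-RORa-KO, and 4.82 and 5.27 for RORgt-Tbet-KO. Bcl11b, a zinc finger factor of T cells and type 2 lymphoid cells, had a Control-low member (chromosome 12, 108041691 to 108042350) with 5.13, 5.37 and 5.81 for Control, 7.0 and 6.95 for RORgt-KO, and 5.30 and 5.42 for RORgt-Tbet-KO. Single members lay near Prdm1, Runx1, Ikzf1 and Tox. Over these 16 members the difference from RORgt-KO ran from -2.25 to -0.83, and the median over the 304 other peaks of the list was 0.12. This contrast follows from the choice of members.

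The 6 members of cytokine receptor and JAK-STAT genes (Ifngr1, Il10rb, Il21r, Jak2, Socs2 and Tyk2) were all Control-low. The Il21r member, 9741 bp from this receptor gene on chromosome 7 (125592992 to 125593511), had 2.96, 4.46 and 3.85 for Control, 6.12 and 5.97 for RORgt-KO, 6.48, 6.34 and 6.57 for RORgt-RORa-KO, and 4.56 and 4.83 for RORgt-Tbet-KO. It lay above Control in both RORgt-Tbet-KO libraries. The Jak2 member, near the gene of the kinase that serves the interleukin-12 receptor, had 5.24 and 5.29 for RORgt-KO and 4.23 and 3.83 for RORgt-Tbet-KO.

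Of the homing genes, Itgb1, the integrin beta-1 chain that pairs with CD49a, had 3 Control-low members among its 4 peaks, all between 38577 and 42294 bp from the gene. The one at 128645523 to 128645822 on chromosome 8 had 3.96, 4.18 and 4.68 for Control, 5.84 and 5.41 for RORgt-KO, 5.69, 6.34 and 5.37 for RORgt-RORa-KO, and 3.61 and 3.20 for RORgt-Tbet-KO. S1pr1, the receptor that guides lymphocytes out of tissue, had 2 members, of which that at 115692380 to 115692709 on chromosome 3 had 5.68 and 5.74 for RORgt-KO and 3.08 and 3.99 for RORgt-Tbet-KO. Ccr2, a receptor for monocyte-attracting chemokines, had 1.

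The 3 members of the type 3 list lay near Il23r, Cd93 and Csf2. Cd93 encodes a C-type lectin-like surface protein, and its member at the gene end (chromosome 2, 148444372 to 148444618) was Control-high with 6.60, 7.19 and 6.46 for Control, 6.96 and 6.72 for RORgt-KO, 6.16, 6.60 and 6.46 for RORgt-RORa-KO, and 5.0 and 5.39 for RORgt-Tbet-KO. The Il23r member, 23023 bp from the interleukin-23 receptor gene (chromosome 6, 67399581 to 67399909), lies between Il23r and Il12rb2, so that its name rests on distance alone. It had 4.99 and 5.35 for RORgt-KO and 2.72 and 3.75 for RORgt-Tbet-KO.

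The largest separations were at genes outside the lists. In Control-low members, the smallest value of the other knockouts exceeded the larger RORgt-Tbet-KO value by 3.04 in Atp10a, a phospholipid flippase gene. This intronic member (chromosome 7, 58824657 to 58825119) had 4.77, 4.54 and 5.14 for Control, 7.16 and 7.09 for RORgt-KO, 7.14, 8.01 and 6.95 for RORgt-RORa-KO, and 3.82 and 3.91 for RORgt-Tbet-KO. The intronic member of Nav2, a neuron navigator gene (49093458 to 49094101 on chromosome 7), followed with 2.73 and had 6.35, 6.20 and 6.14 for Control, 8.25 and 8.03 for RORgt-KO, 7.89, 8.11 and 8.06 for RORgt-RORa-KO, and 5.16 and 4.60 for RORgt-Tbet-KO. That of Stim2, an endoplasmic calcium sensor gene (54105549 to 54105921 on chromosome 5), came next with 2.64, and had 3.18, 3.96 and 3.48 for Control and 3.82 and 3.45 for RORgt-Tbet-KO. Control overlapped RORgt-Tbet-KO in Stim2 and lay above it in Atp10a and Nav2. Nat10, Il12rb2, Ptprj, Ppp4r2 and Bloc1s5 completed the first 8, with separations of 2.56 to 2.31.

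In Control-high members the largest separations among named genes were at Hand2 (3.79), Coil (3.13) and Elobl (2.74), followed by Glcci1, Impg1, Ptpn4, Fam155a and Cemip2. Several of these rest on few reads. The member 48532 bp from Hand2 (chromosome 8, 57373049 to 57373360) had 3.54, 4.28 and 4.38 for Control, 5.28 and 5.46 for RORgt-KO, 5.53, 6.75 and 6.07 for RORgt-RORa-KO, and 1.50 and -0.25 for RORgt-Tbet-KO. The members near Elobl and Coil are adjacent on chromosome 11 (from 88968386 to 88970658) and both had 1.91 and 2.07 for RORgt-Tbet-KO. Control was widely spread, with 3.54, 5.33 and 6.89 at Elobl and 2.69, 5.33 and 6.03 at Coil. Control replicate 1 held 5 reads at Coil, where the RORgt-Tbet-KO libraries held 4 and 5. The Cemip2 member (chromosome 19, 21767557 to 21768169), near a hyaluronidase gene, was better covered, with 6.30, 6.48 and 6.03 for Control, 6.93 and 6.92 for RORgt-KO, 7.27, 7.42 and 7.09 for RORgt-RORa-KO, and 4.77 and 4.91 for RORgt-Tbet-KO.

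Some genes held several members, though genes with many peaks had more chances. Plekhm3, Hivep3, Mcm9, Inpp4b and Gramd3 had 4 each, of 6, 12, 6, 14 and 6 peaks, and 22 genes had 3. All 4 members of Inpp4b, a phosphoinositide phosphatase gene, and of Mcm9, a DNA helicase gene, were Control-high, and all 4 of Hivep3, a zinc finger gene, were Control-low. The Inpp4b member at 81497290 to 81498183 on chromosome 8 had 6.44, 6.48 and 6.29 for Control, 7.42 and 7.34 for RORgt-KO, 7.93, 7.90 and 7.57 for RORgt-RORa-KO, and 5.04 and 5.53 for RORgt-Tbet-KO. Acod1, which encodes the enzyme that makes itaconate, had 3 Control-low members among 4 peaks, and the one over its start site (chromosome 14, 103046749 to 103047073) had 4.69, 4.28 and 5.43 for Control, 6.62 and 6.08 for RORgt-KO, 6.44, 7.49 and 6.70 for RORgt-RORa-KO, and 3.37 and 4.14 for RORgt-Tbet-KO. All 3 peaks of Bfsp1, a lens filament gene, were Control-high members.

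At the edge of the rule, the members just inside the 0.8 minimum (at 38805332 on chromosome 3, at 75520605 on chromosome 5 and at Cpne7) and the peaks just outside it (at Klre1, Sik3 and Emb) all had a smaller mean difference of 0.80 in size. The highest Control level of a member was near Rpusd4 (10.13, 10.55 and 11.61, with 9.81 and 10.41 for RORgt-Tbet-KO) and the lowest at 88636939 on chromosome 13 (0.37, 0.22 and 0.68, with 0.91 and 1.33). There were 109 members with a smaller difference under 0.85 and 161 with at least 2.

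The deleted gene and other cell types were examined last. The 3 peaks assigned to Tbx21 were no members. The intronic one at 97112532 to 97113091 on chromosome 11 had 6.69 and 6.92 for RORgt-Tbet-KO, 5.84 and 5.78 for RORgt-KO and 5.07, 5.07 and 5.0 for Control, and since the sources used here do not say which exons are floxed, these peaks do not check the deletion. Peaks at Id2, Il7r and Gata3, genes of innate lymphoid cells, were present in all libraries, the highest Gata3 peak at 8.98 to 9.69. Peaks were assigned to 4 of 11 B cell genes, 7 of 13 myeloid genes, among them Kit, which innate lymphoid cells also express, and 8 of 13 T cell genes. Ms4a1 and Cd79a of the B cell list, Csf1r, Lyz2 and Itgax of the myeloid list and Cd3g and Cd8a of the T cell list had no peak. The Cd3d peak lay at 7.14 to 7.91 in the 10 libraries. The Cd3e peak lay at 4.37 to 5.26 in Control, 5.65 to 5.93 in RORgt-KO, 6.75 to 6.83 in RORgt-RORa-KO and 6.37 to 6.78 in RORgt-Tbet-KO, so it was lowest in Control. The Cd4 peak lay at 5.43 to 5.62 in Control and 6.04 to 6.64 in the knockouts. Members numbered 1 of 16 peaks at T cell genes, 0 of 13 at B cell genes, 1 of 20 at myeloid, 1 of 13 at epithelial and 1 of 19 at stromal and endothelial genes. The summed level of the 20 myeloid peaks was 3576 to 3662 scaled reads in RORgt-Tbet-KO, 2867 to 2985 in RORgt-KO, 2756 to 3389 in RORgt-RORa-KO and 2561 to 2701 in Control. The 19 stromal and endothelial peaks summed to 1627 to 1693 in RORgt-Tbet-KO, 1217 to 1283 in RORgt-KO, 1284 to 1428 in RORgt-RORa-KO and 1238 to 1330 in Control. RORgt-Tbet-KO was thus above every other library in both sums. It was also above them in the LTi-like sum (7383 to 7498, at most 6731 elsewhere) and the type 3 sum (9768 to 10073, at most 9619). The same held for immediate early genes (22251 to 22516, at most 22022), but not for the type 1 and natural killer receptor sums. Such a difference was thus not particular to genes of other cell types. The 13 B cell peaks summed to 813 to 929 in RORgt-Tbet-KO, 751 to 769 in RORgt-KO, 654 to 753 in RORgt-RORa-KO and 1160 to 1211 in Control, where they were highest. The 16 T cell peaks summed to 1420 to 1471, 1245 to 1262, 1409 to 1622 and 1149 to 1427 in these groups, and the 13 epithelial peaks to 1236 to 1246, 1233 to 1239, 1091 to 1181 and 869 to 1018. The 34 housekeeping peaks summed to 5317 to 5417, 4845 to 4976, 4040 to 5394 and 4428 to 4636. Their part in the members' levels was not tested.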

How the data were processed

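ATAC-seq was measured in 10 libraries. Reads were trimmed with Trim Galore 0.62, aligned with Bowtie2 2.3.5.1, filtered with SAMtools and given to MACS2 for peak calling, per the submitters' processing notes, which name GRCm38. The authors deposited 1 table of log2 scaled reads for 36262 peaks in all libraries, and the sources used here do not say how its peaks were merged. Raised to the power of 2, all values (100%) were whole multiples of a step per library within a tolerance of 0.01, or 0.9 of it for an empty peak, which recovered the reads. The 11 peaks on Y were left out.

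The members and the 15 gene lists were chosen with earlier results of these data known. Peaks were fitted with limma 3.58.1 in R 4.3.3, all 4 groups in 1 fit with a mean-variance trend (6 residual and 22.5 prior degrees of freedom), and p-values of 6 contrasts were adjusted over 36251 peaks by the Benjamini-Hochberg method. SE is limma's moderated standard error. Differences are on the log2 scale of the deposited values. The fit was tested on simulated data with 200 changed peaks. Peaks inside several genes (1576) took the gene whose start site was nearest the centre of the peak, or whose end was where no start site was listed. Promoters and gene positions came from RefSeq for the same assembly, and peak sequences were not used here. The p-values cover the spread between these libraries.

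Members are named by these rules: those near genes of the type 1, natural killer receptor, type 3, LTi-like, transcription factor, cytokine receptor and homing lists, the 8 largest separations in each Control class (predicted genes left out), genes with 3 or more members, the 3 peaks on each side of the 0.8 minimum, and the highest and lowest Control level. Members over printed promoters were chosen for their letters. Alternatives covered the minimum, scaling, pseudocount, filter, trend, voom, a replicate block and leaving out each library. Figures were drawn with matplotlib 3.10.9. Some gene and allele names are not reported here.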

Additional observations from a re-analysis of the deposited data

How the results depend on the processing

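The choice of members gave 1030 to 2008 peaks with minimum differences of 1.0 and 0.6, 1389 after centring (1370 of the 1415 shared), 1146 after quantile normalization (1126 shared) and 1416 with 1 further read added (1390 shared). With only peaks above the lower quartile of mean level it gave 676, of which 353 were Control-high and 323 Control-low. Among them were 10 type 1 and 7 natural killer receptor members. This filter kept 27188 of the 36251 peaks but only 676 of the 1415 members, which were more often peaks of low level. The members called by limma then numbered 249 for RORgt-Tbet-KO against Control, 222 for RORgt-KO and 400 for RORgt-RORa-KO (6253, 3324 and 8474 of all 27188 peaks). Leaving out 1 library gave 1380 to 2006 members, 731 to 1318 Control-high and 548 to 722 Control-low. Members called, of either direction, then ranged from 71 to 195 for RORgt-Tbet-KO against RORgt-KO (91 to 204 of all peaks), 410 to 903 against RORgt-RORa-KO (967 to 3778) and 252 to 473 against Control (3359 to 8918), from 110 to 392 for RORgt-KO against Control (1711 to 5092) and from 0 to 4 between RORgt-RORa-KO and RORgt-KO (86 to 606).

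Without a mean-variance trend, 91 members were called against RORgt-KO (95 of all peaks, in place of 415), and 0 between RORgt-RORa-KO and RORgt-KO (45 of all peaks, in place of 534); against RORgt-RORa-KO, 1505 of all peaks were called in place of 2733. Fitting only the groups compared gave 764 members against RORgt-KO (3341 of all peaks) and 13 between RORgt-RORa-KO and RORgt-KO. Voom on the recovered reads gave 7 for the latter, and 664 of all peaks against RORgt-KO. The cause was not tested. Libraries with the same replicate number did not deviate together (13 pairs, correlations -0.12 to 0.14). A replicate block gave 417 members against RORgt-KO (666 of all peaks), 888 against RORgt-RORa-KO and 531 against Control, and 11 between RORgt-RORa-KO and RORgt-KO.

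Of 370 called differences of named members, 0 changed sign under these settings. For the contrasts of RORgt-Tbet-KO with the other knockouts, the choice had fixed the sign when a library or the trend was left out. Nothing is read from their unchanged sign. The call was lost in 86 without the trend and in 88 and 70 of 224 without RORgt-Tbet-KO replicates 1 and 2. Without RORgt-KO replicates 1 and 2 it was lost in 70 and 51 of 110. Within 500 bp and 2 kb of gene ends lay 73 and 139 members (5.16% and 9.82%), against 26.9% and 34.2% of all peaks. The median member's 14 to 17 reads in RORgt-Tbet-KO limit single low members.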

Other observations

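Members with hardly any reads in RORgt-Tbet-KO were few. Over all peaks, 4 held 0 reads in both RORgt-Tbet-KO libraries, and all 4 were members, on the Control-high side; 19 members held at most 3 reads over both. Of the 4, chosen after their values were seen, 3 lay within chromosome 8 from 55115647 to 55348192, near the predicted genes Gm51571 and Gm51591, and 1 lay on chromosome 6 from 75485182 to 75485395, over 50 kb from any protein-coding gene. The peak from 55347912 to 55348192 had 1.96, 3.69 and 5.89 for Control, 4.53 and 5.46 for RORgt-KO, and 5.34, 4.52 and 4.43 for RORgt-RORa-KO. The chromosome 6 peak had 5.02, 4.54 and 4.00 for Control, 0.13 and 2.24 for RORgt-KO and 2.07, 3.14 and 1.84 for RORgt-RORa-KO, so it was low in every knockout. The genome of these mice was not examined, so 0 reads here cannot be told apart from sequence that differs from the reference.

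Type 2 lymphocyte genes had 3 members among 17 peaks, near Il1rl1, which encodes the interleukin-33 receptor, Gfi1, a zinc finger repressor, and Calca, which encodes the neuropeptide CGRP. The summed level of the 17 peaks was 1168 to 1291 scaled reads in RORgt-Tbet-KO, 1455 to 1465 in RORgt-KO, 1424 to 1772 in RORgt-RORa-KO and 1362 to 1689 in Control. RORgt-Tbet-KO did not overlap any other group in this sum. The sum includes the 3 members, so the separation follows partly from the choice. The 14 other peaks had a median difference of -0.11 from RORgt-KO, -0.13 from RORgt-RORa-KO and -0.11 from Control. Their sum was not counted.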
